A study of Mus musculus with 12 samples.

Results

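The genes described here were lower with vesicles than with PBS both in the injured mouse retina and in cultured cells labelled brain microvascular pericytes. They were selected on measured values. Levels are in CPM, the share of a library's counts taken by a gene on the usual per-million scale, computed in each count table on its own, and genes were matched between tables by gene identifier. A gene was kept where its mean was at least 2 CPM with PBS in both tables, every vesicle library lay below every PBS library in both tables, and the log2 ratio of mean CPM, vesicles over PBS, was -0.4 or less in both. This gave 129 genes, out of 32198 listed in both tables and 11100 that met the minimum level. The 129 genes are 1.16% of the 11100. Because both contrasts entered the choice, all ratios given for these genes are descriptions. Where an edgeR call of them is counted, nothing is read from it.

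All 12 libraries came from wild-type (WT) mice or their cells, in 4 groups of 3. The retina groups, sampled at day 1, had an optic nerve crush (ONC), an injury to the axons of retinal ganglion cells, and received PBS or MSC.sEV given i.o., an abbreviation the labels leave unexplained. MSC.sEV are small vesicles shed by mesenchymal stem cells. The cell groups received PBS or MSC.sEV for 12 hours. Columns of the retina table are headed CTR and M and were read as the PBS and vesicle groups by inference. The direction of each retina difference rests on that reading, and if CTR were uninjured retina, every retina difference would hold the crush together with the vesicles. Library numbers in the retina are column numbers. The labels do not tell if replicates were separate animals or cultures.

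Extracellular vesicles are membrane particles that carry protein and RNA from the cell that sheds them and can be taken up by other cells. In nervous tissue, astrocytes and Müller glia clear potassium and transmitters through channels and solute carriers, and most cells carry a primary cilium, an antenna-like organelle that in photoreceptors is built into the outer segment. Pericytes are contractile cells that wrap capillaries.

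The label of the cultured cells was checked against markers. Of 14 pericyte and mural genes, Higd1b, expressed by brain pericytes, had 0 counts in all 6 libraries. Abcc9 and Kcnj8, subunits of the pericyte ATP-sensitive potassium channel, were at or below 0.242 CPM, and Des was at or below 0.0271 CPM. Acta2, the smooth muscle actin, stood between 563 and 608 CPM and Pdgfrb, the platelet-derived growth factor receptor of pericytes, between 56.9 and 73.2 CPM. Of the rest, Notch3, Cspg4, Mcam and Anpep had PBS means of 25.4, 12.0, 9.01 and 6.07 CPM. Those of Vtn, Tagln, Myh11 and Rgs5 were 3.99, 1.65, 0.810 and 0.288 CPM. Genes known from astrocytes were high: Aqp4, the glial water channel, between 470 and 631 CPM, Slc1a3, a glutamate transporter, between 417 and 452 CPM, and Gfap, the astrocyte filament protein, between 187 and 225 CPM. Olig1, a factor of the oligodendrocyte lineage, stood between 135 and 213 CPM, while Sox10 of the same lineage was at or below 0.174 CPM. Rlbp1 was the lowest gene of the Müller glia and astrocyte list, with a PBS mean of 1.04 CPM. Summed, 9 fibroblast genes stood at 674 to 726 CPM with PBS. Several defining pericyte markers were therefore absent or nearly so while others were expressed, and the cells are called pericyte-labelled throughout.

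**Figure D1:**
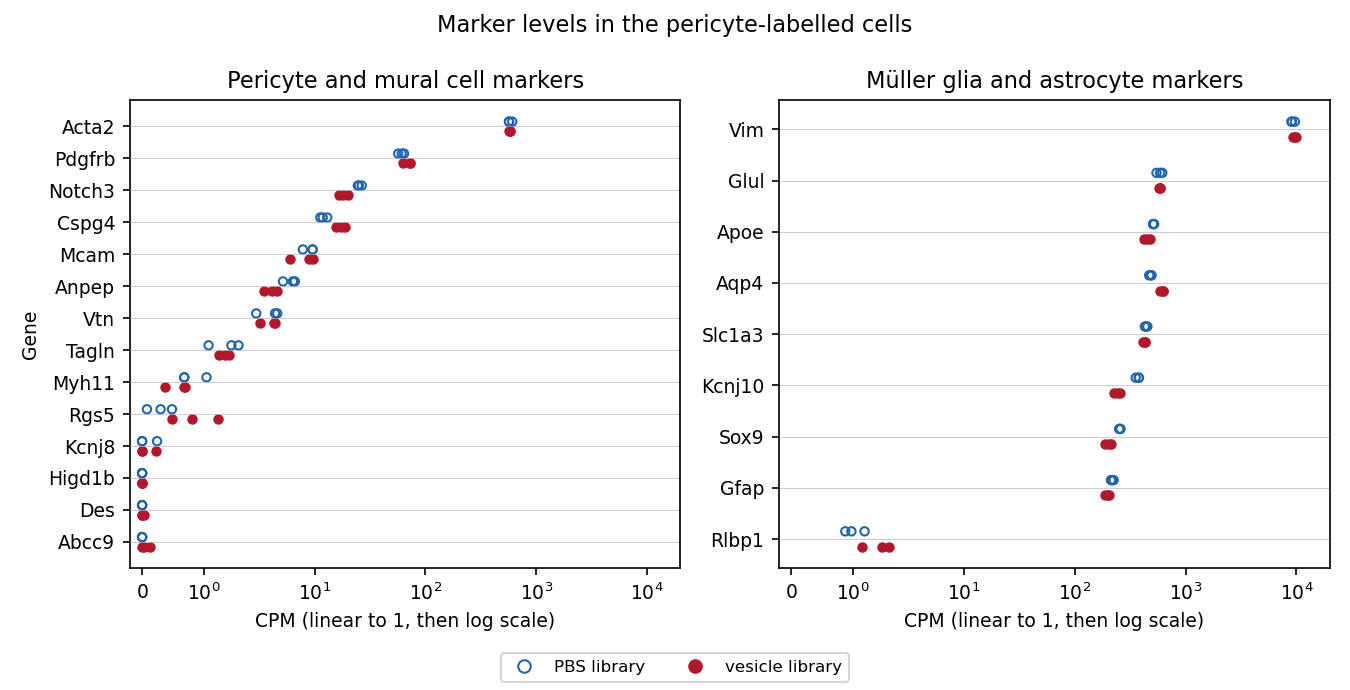
CPM of 14 pericyte and mural markers and 9 markers of Müller glia and astrocytes in the 6 pericyte-labelled libraries, on an axis that is linear up to 1 and logarithmic above it. Open points are PBS libraries and filled points vesicle libraries. Higd1b lies at 0, while Aqp4, Slc1a3 and Gfap lie above 100 CPM.

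The retina libraries held 15580024 to 16842926 counts each and the pericyte-labelled libraries 33001248 to 37954077, so that the minimum of 2 CPM came to 31.2 and 66.0 counts in the smallest libraries. No gene among the 129 fell under 10 counts in any library. Their lowest count was 11, for Nkain4 in the retina vesicle library 2. The share of counts in genes of the lens, a separate tissue, was 0.733%, 0.0843% and 0.0725% in the retina with PBS. With vesicles it was 2.04%, 7.78% and 0.0182%. Summed levels of 8 genes of the retinal pigment epithelium were 397, 921 and 2156 CPM with PBS. With vesicles they were 1301, 3176 and 2794 CPM. For 9 fibroblast genes the sums were 37.3, 27.8 and 37.4 CPM with PBS and 158, 113 and 31.2 CPM with vesicles. Summed levels of 9 rod genes ran from 101998 to 103884 CPM with PBS and from 64197 to 81614 CPM with vesicles. Summed levels of 9 monocyte and macrophage genes in the retina were 49.7 to 85.6 CPM with PBS and 746 to 1039 CPM with vesicles, and edgeR called 8 of the 9 higher. In bulk tissue, fewer cells of a type and less RNA per cell cannot be told apart. The part of these changes in the values below was not tested. For some genes it is stated if they still qualified without the lens-rich libraries.

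The median log2 ratio of the 129 genes was -0.65 in the retina and -0.60 in the pericyte-labelled cells, against -0.04 and -0.04 for all 11100 genes compared. The lowest ratios were -1.74 in the retina, for Col9a1, and -1.71 in the pericyte-labelled cells, for Kdr. Few genes were halved: 11 were at or under a log2 ratio of -1 in the retina and 10 in the pericyte-labelled cells. The gene for angiotensinogen, Agt, was the one gene at or under that ratio in both. The fall was larger in the retina for 73 genes and larger in the pericyte-labelled cells for 56.

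**Figure D2:**
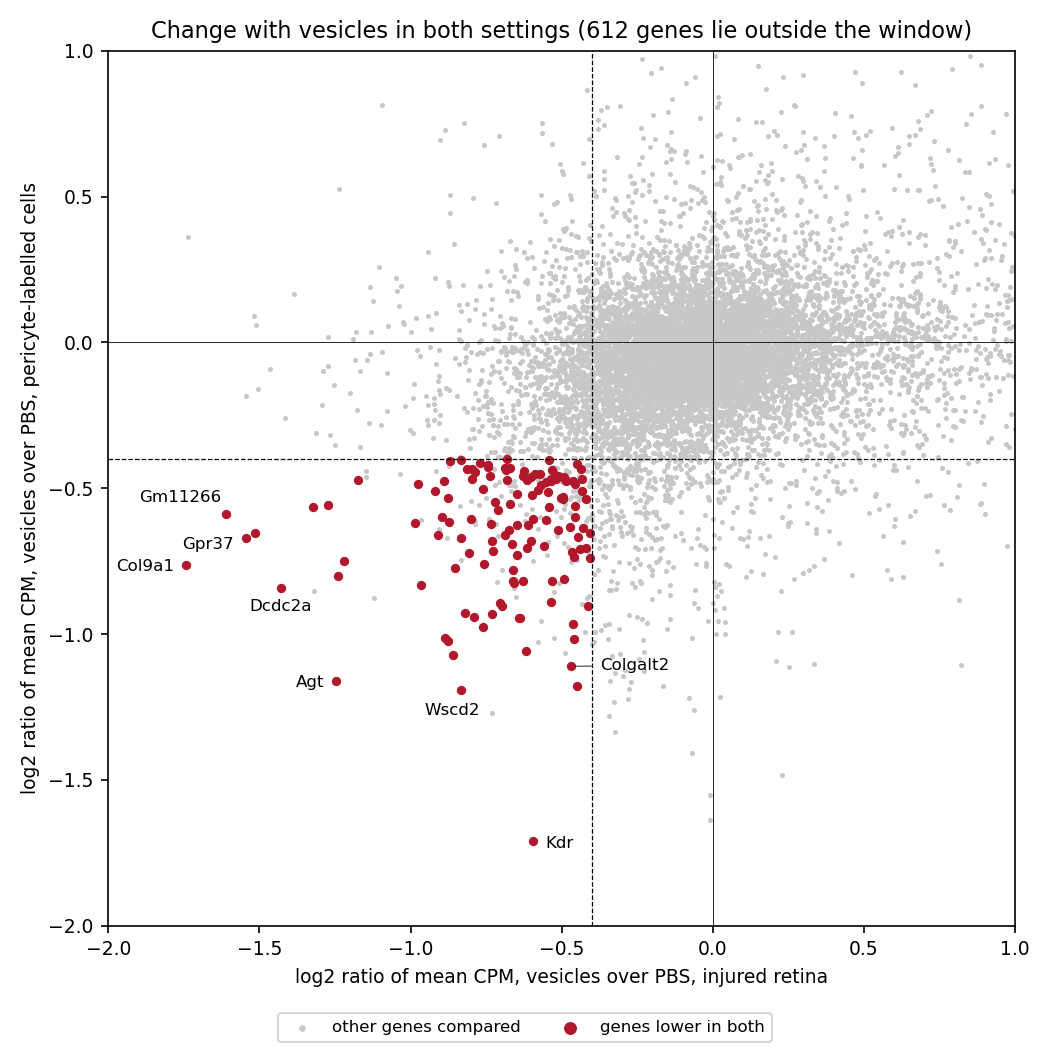
Log2 ratio of mean CPM, vesicles over PBS, in the injured retina (x axis) and the pericyte-labelled cells (y axis) for the genes at 2 CPM or more with PBS in both tables. Red points are the 129 genes lower in both, grey points the other genes, and dashed lines the -0.4 threshold. Agt is the red point under -1 on both axes, and 612 genes, none of them among the 129, lie outside the window.

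In the retina, 839 of the 11100 genes (7.56%) were without overlap and at or under -0.4, and in the pericyte-labelled cells 691 (6.23%). The 129 shared genes are 15.4% of the first list and 18.7% of the second. The reverse pattern, every vesicle library higher and a log2 ratio of 0.4 or more in both, was met by 273 genes. Opposite directions were met by 21 genes lower in the retina and higher in the pericyte-labelled cells and by 48 genes the other way. Of the 710 genes lower in the retina that did not qualify in the pericyte-labelled cells, 493 had a ratio under 0 there and 217 a ratio above 0, with a median log2 ratio of -0.09.

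Across all genes, the quasi-likelihood test of edgeR with Benjamini-Hochberg adjustment called 2449 of 15440 genes in the retina (15.9%), 1648 of them higher (10.7% of those tested) and 801 lower (5.19%), and 3365 of 16975 in the pericyte-labelled cells (19.8%), 1855 of them higher (10.9%) and 1510 lower (8.9%). These shares are the background for each count of called genes on a list below. All 129 genes passed the low-count filter of that edgeR fit in both tables. It called 69 of them lower in the retina, 99 lower in the pericyte-labelled cells and 59 lower in both, with none called higher. Nothing is read from these counts, since the same contrasts chose the genes.

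Within the retina, the genes were not equally low in the 3 vesicle libraries. Their median log2 value against the PBS mean was -0.65, -0.85 and -0.46 in vesicle libraries 1, 2 and 3, while all 11100 genes had medians of -0.03, -0.12 and 0.03. The second vesicle library, with the most lens counts, was the lowest for 94 of the 129 genes, and the third, with the least, was the highest vesicle library for 91. Pericyte-labelled vesicle libraries were alike, with medians of -0.64, -0.59 and -0.59. Summed over the 129 genes, the level went from 5373, 5859 and 5401 CPM to 3565, 3145 and 4138 CPM in the retina. The pericyte-labelled sums went from 3590, 3646 and 3656 CPM to 2282, 2496 and 2484 CPM.

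**Figure D3:**
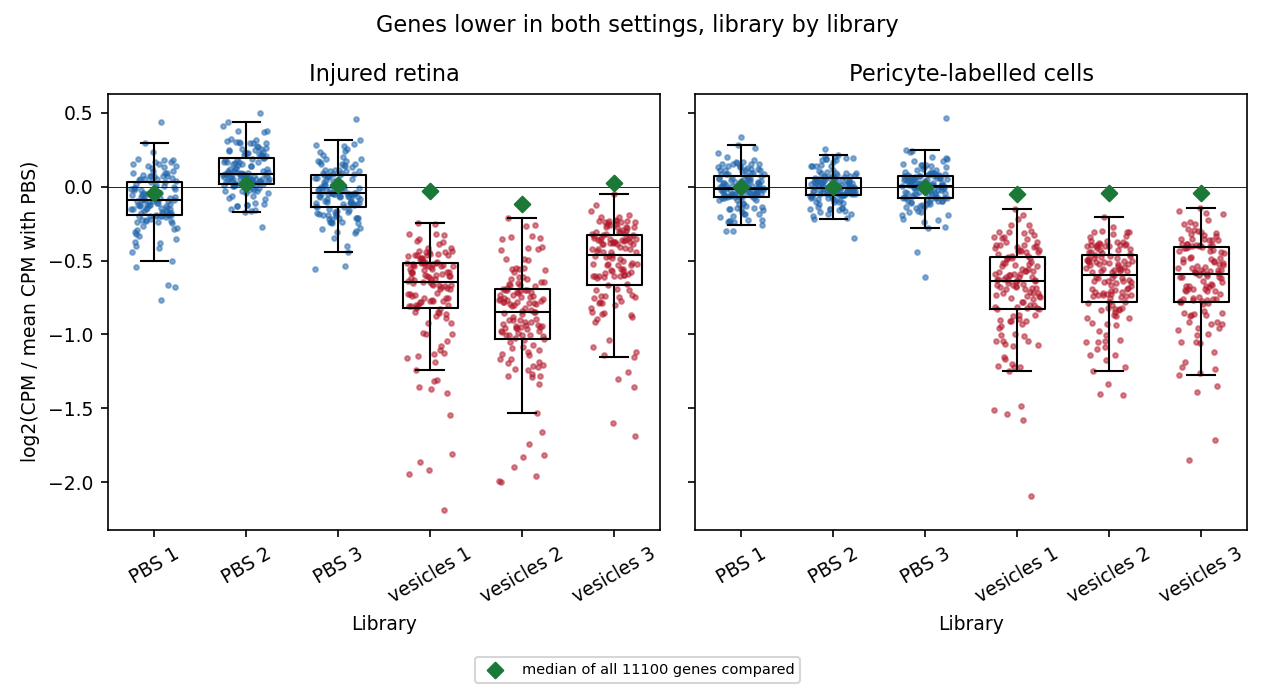
Log2 of CPM over the mean CPM with PBS for the 129 genes in each library, with boxes for the median and quartiles, whiskers to 1.5 times the quartile range and diamonds for the median of all 11100 genes compared. Vesicle library 2 is the lowest in the retina, at a median of -0.85, and the pericyte-labelled vesicle libraries lie at -0.64, -0.59 and -0.59.

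How far the choice of genes leans on single libraries was checked by applying the rule again. With fewer libraries the no-overlap part of the rule is easier to meet, which by itself lets more genes in. A gene of the 129 can then drop out only through its ratio or its level. Without the lens-richest library of each retina group, 217 genes met the rule, among them 108 of the 129. Without retina PBS library 1 it took 247 genes and without retina vesicle library 3 it took 232, while every other single omission gave between 117 and 154. Of the 129 genes, 61 were kept in all 12 lists that leave out a library, and 97 under all 3 other scalings. Since the -0.4 limit is a threshold, the genes beside it differ little. Just inside were 1700096K18Rik at -0.68 and -0.40 (retina and pericyte-labelled cells), Rhpn1 at -0.54 and -0.40 and Kazald1 at -0.83 and -0.40. Just outside were Xndc1 at -0.40 and -0.61, Plekha6 at -0.40 and -0.44 and Pitpnm2 at -0.58 and -0.39.

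The 12 genes whose weaker fall was greatest, in that order, were Agt, Kcnn2, Aif1l, the noncoding Gm15663, Dcdc2a, Wscd2, Mmd2, Igsf9b, Prrt3, Klhl3, Pitpnm3 and Col9a1. They have no family in common. A hormone precursor, a channel, cytoskeletal proteins, a membrane receptor-like protein and an adhesion molecule are among them. So are a ubiquitin ligase adaptor, a member of a lipid transfer protein family and a collagen chain. The 250 bases before the annotated start are shown for the first 4 protein-coding genes of this order with an entry in the RefSeq promoter table (GRCm38.p6), to let the start regions of genes that fell together be compared. Capitals mark matches on either strand to 14 motifs: CACGTG (E-box), GGGCGG (Sp1), CCAAT, TGACGTCA (CRE), TGANTCA (AP-1), GTAAACA (forkhead), TGGGAA (Rbpj core), CCGGAAG (Ets), GGAATG (Tead), TTNNGCAA (C/EBP), TTATGNAA (PAR bZip), CAGATG (E-protein) and the longer motifs of NF-kB and Nrf1.
Agt, chr8:124569707-124569956, minus strand: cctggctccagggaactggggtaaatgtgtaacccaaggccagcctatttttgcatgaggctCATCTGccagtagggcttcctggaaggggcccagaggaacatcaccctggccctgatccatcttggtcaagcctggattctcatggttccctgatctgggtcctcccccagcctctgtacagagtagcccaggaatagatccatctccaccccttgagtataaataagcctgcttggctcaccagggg
Aif1l, chr2:31950053-31950302, plus strand: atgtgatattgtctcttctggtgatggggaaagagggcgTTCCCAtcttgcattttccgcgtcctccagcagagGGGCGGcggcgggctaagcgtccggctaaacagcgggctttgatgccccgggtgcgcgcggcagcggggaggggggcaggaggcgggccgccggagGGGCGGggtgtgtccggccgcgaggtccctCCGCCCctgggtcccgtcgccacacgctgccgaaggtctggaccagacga
Dcdc2a, chr13:25055754-25056003, plus strand: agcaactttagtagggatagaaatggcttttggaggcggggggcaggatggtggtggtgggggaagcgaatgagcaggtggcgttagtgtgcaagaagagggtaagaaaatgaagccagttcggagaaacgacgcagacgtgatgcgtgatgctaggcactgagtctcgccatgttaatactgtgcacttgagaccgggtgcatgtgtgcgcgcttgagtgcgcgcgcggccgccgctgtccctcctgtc
Mmd2, chr5:142608753-142609002, minus strand: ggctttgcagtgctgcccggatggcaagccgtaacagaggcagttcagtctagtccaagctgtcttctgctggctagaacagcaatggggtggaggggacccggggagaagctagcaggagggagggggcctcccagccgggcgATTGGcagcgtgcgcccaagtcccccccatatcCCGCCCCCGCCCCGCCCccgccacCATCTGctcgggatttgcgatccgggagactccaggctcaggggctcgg
The 4 stretches had little in common. Agt held 1 match, CATCTG, the reverse complement of the E-protein motif, beginning 188 bases before the start. Aif1l held 3 Sp1 matches and 1 Rbpj core match. Mmd2 held 3 Sp1 matches close to the start, 2 of which overlap, with 1 CCAAT match and 1 E-protein match. The Dcdc2a stretch held no match to any of the 14. CG pairs numbered 0 in Agt, 27 in Aif1l, 18 in Dcdc2a and 15 in Mmd2. Among all 32851 RefSeq promoter stretches of this length, 32.7% held the Sp1 motif, 33.8% CCAAT, 21.6% the Rbpj core and 14.4% the E-protein motif. A match describes letters only. Entries were found for 103 of the 129 genes (79.8%) and for 8984 of the 11100 genes compared (80.9%), and no comparison over the whole set was made.

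The genes were sorted by role after their values were known. Among 5 secreted and matrix proteins (Agt, Col9a1, Enho, Wfdc3 and Kazald1), Agt encodes angiotensinogen, the precursor of angiotensin that astrocytes make in the brain. Agt stood at 7.25, 9.74 and 4.98 CPM with PBS and at 3.28, 1.84 and 4.15 CPM with vesicles in the retina. In the pericyte-labelled cells it stood at 7.54, 6.15 and 5.63 CPM with PBS and at 2.26, 3.11 and 3.28 CPM with vesicles. The retina groups were separated by less than 1 CPM, since PBS library 3 and vesicle library 3 lay close, and the pericyte-labelled groups were further apart. The log2 ratios were -1.25 and -1.16.

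Col9a1, a chain of collagen IX, which is found in cartilage and the vitreous of the eye, had the lowest ratio in the retina. It went from 21.4, 47.8 and 32.5 CPM to 7.44, 8.73 and 14.2 CPM, a log2 ratio of -1.74. The PBS libraries were widely spread, yet the lowest of them lay 7.14 CPM above the highest vesicle library. The same gene in the pericyte-labelled cells went from 9.12, 9.24 and 9.92 CPM to 6.62, 6.06 and 4.0 CPM, a log2 ratio of -0.76. Enho, which encodes the secreted peptide adropin, had ratios of -0.61 and -0.63.

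Receptors, adhesion and guidance molecules numbered 14, with median log2 ratios of -0.68 in the retina and -0.67 in the pericyte-labelled cells. They were Igsf9b, Gpr179, Gpr37, Disp3, Tmem108, Epha3, Lingo3, Fbxo41, Kdr, Gpr37l1, Plxdc1, Crb2, Fzd5 and Dab1. Fbxo41, an F-box protein, was counted with them though it is no receptor. Gpr37 and Gpr37l1 are the 2 members of 1 orphan receptor family, known from oligodendrocytes and astrocytes, and both qualified. In the retina Gpr37 went from 129, 125 and 96.3 CPM to 33.2, 33.1 and 53.8 CPM, which left its groups far apart, with a log2 ratio of -1.54. Gpr37l1 had ratios of -1.32 and -0.56, and Gpr37 of -0.67 in the pericyte-labelled cells. Gpr37l1 was low in the retina, its lowest PBS library at 2.37 CPM and its highest vesicle library at 1.19 CPM. For both genes the ratio was lower in the retina, a difference that was not tested.

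Kdr, the vascular endothelial growth factor receptor 2, showed the opposite order. In the pericyte-labelled cells it went from 4.66, 4.76 and 5.0 CPM to 1.13, 1.81 and 1.47 CPM, to 30.6% of the PBS mean. The retina values were 28.8, 38.2 and 31.8 CPM with PBS and 20.7, 19.0 and 25.8 CPM with vesicles, to 66.2%. Kdr is 1 of 9 endothelial markers on a fixed list. Of the others, none of the 7 tested in the retina was called by edgeR, and of the 5 tested in the pericyte-labelled cells 1 was called higher and none lower. Cldn5, a tight-junction gene of brain endothelium, had 0 counts in the pericyte-labelled cells, and Pecam1 was at or under 0.607 CPM there. Cdh5, the cadherin of endothelial junctions, lay between 6.55 and 10.6 CPM. The 1 called higher was Flt1, another vascular endothelial growth factor receptor, at 44.4, 45.9 and 44.6 CPM with PBS and 73.2, 82.6 and 75.8 CPM with vesicles. Summed, the 9 genes stood at 61.1 to 61.5 CPM with PBS and 86.9 to 94.5 CPM with vesicles in these cells, and at 51.9 to 83.1 CPM and 45.1 to 53.2 CPM in the retina. The part of these levels in the values of Kdr was not tested.

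Igsf9b is an adhesion molecule of inhibitory synapses. In the pericyte-labelled cells it stood at 70.2, 84.4 and 87.2 CPM with PBS and at 33.9, 45.2 and 47.9 CPM with vesicles. In the retina it stood at 3.40, 5.18 and 3.38 CPM with PBS and at 2.84, 1.07 and 2.87 CPM with vesicles. The 2 lower PBS libraries and the 2 higher vesicle libraries of the retina were less than 1 CPM apart, whereas the pericyte-labelled groups were well separated.

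Epha3, an ephrin receptor that guides axons and cell positions, had values of 11.6, 11.2 and 10.2 CPM with PBS and 7.63, 6.12 and 6.96 CPM with vesicles in the retina. In the other cells they were 5.32, 4.76 and 4.02 CPM against 2.86, 2.87 and 3.31 CPM. The log2 ratios, -0.67 and -0.64, were close to the medians of the receptor group. On a fixed list of semaphorin, ephrin, slit and netrin genes, edgeR called 3 of 50 tested genes higher and 5 lower in the retina, and 11 of 52 higher and 8 lower in the pericyte-labelled cells. Without Epha3 itself, 4 of 49 and 7 of 51 were lower. Leaving out single libraries moved these 4 counts to between 1 and 6, 0 and 6, 6 and 12, and 6 and 8. The 3 higher genes of the retina became 1 without vesicle library 2 and 6 without PBS library 3 or vesicle library 3. No lower gene was left in the retina without PBS library 2 or without vesicle library 2, and the 11 became 6 without pericyte-labelled PBS library 3. Of all genes tested, 10.7% were called higher and 5.19% lower in the retina, and 10.9% and 8.9% in the pericyte-labelled cells.

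Fzd5, a Wnt receptor needed for eye development, had 16.1, 18.5 and 18.0 CPM with PBS and 12.3, 10.2 and 14.9 CPM with vesicles in the retina. Its pericyte-labelled values were 36.4, 34.7 and 38.5 CPM against 26.1, 25.6 and 27.8 CPM. Both falls were modest, with log2 ratios of -0.49 and -0.46. Of the Wnt and Hippo genes on a fixed list, 6 of 36 tested were called higher and 0 lower in the retina, with 3 to 14 higher and 0 to 1 lower when single libraries were left out. Among the pericyte-labelled libraries 9 of 36 were called higher and 9 lower (8 of 35 without Fzd5), with ranges of 4 to 10 and 5 to 9. The retina count of 14 came without vesicle library 3. The lowest pericyte-labelled counts came without PBS library 3, and for the lower genes also without PBS library 2. The shares over all genes tested were 10.7% higher and 5.19% lower in the retina, and 10.9% and 8.9% in the pericyte-labelled cells.

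**Figure D4:**
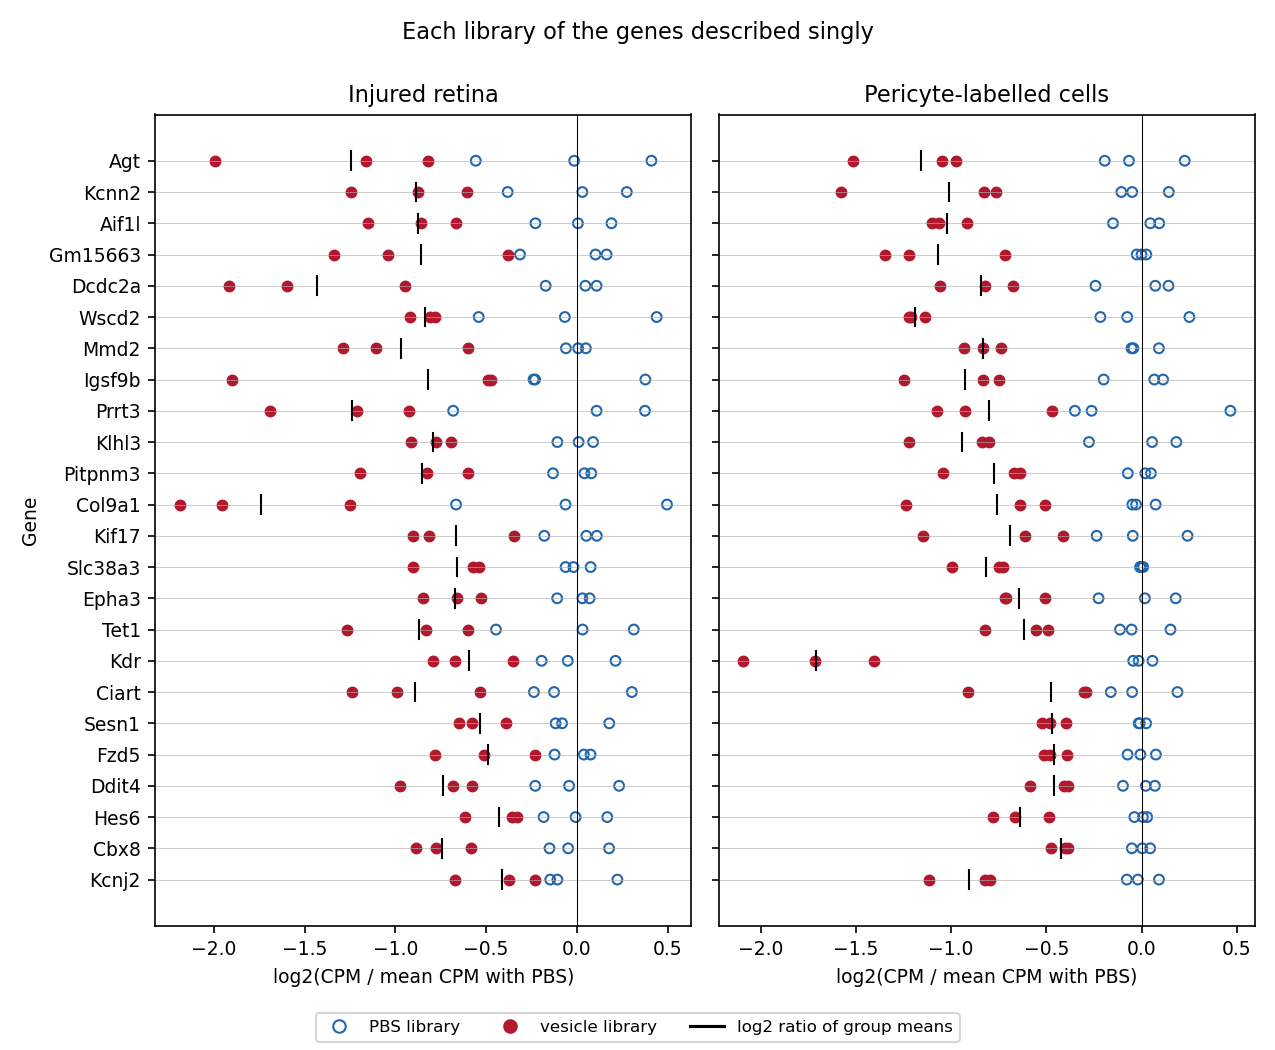
Log2 of CPM over the mean CPM with PBS in each library for 24 genes, the 12 whose weaker fall was greatest and those on a pathway or marker list, in the retina and the pericyte-labelled cells. Open points are PBS libraries, filled points vesicle libraries and black marks the log2 ratio of group means. Points of the 2 groups do not overlap because the choice of genes required it, and the gap is small for Gm15663 and Kcnj2 in the retina and for Prrt3 and Ciart in the pericyte-labelled cells.

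Channels, transporters and their partners numbered 15, among them Kcnn2, Nkain4, Slc38a3, Atp7b, Kcnab3, Gria2, Cacnb2, Slc26a2, Srl, Abca8b, Slc6a15, Ryr2 and Kcnj2. Their median log2 ratios were -0.62 and -0.60. Kcnn2 encodes SK2, a small-conductance potassium channel opened by calcium. It stood at 5.07, 6.74 and 7.99 CPM with PBS and at 3.59, 2.79 and 4.34 CPM with vesicles in the retina. The pericyte-labelled cells had 18.5, 17.8 and 21.1 CPM with PBS and 6.39, 10.8 and 11.3 CPM with vesicles. The nearest libraries of the groups were 6.50 CPM apart in the pericyte-labelled cells and 0.730 CPM apart in the retina.

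Kcnj2, an inward-rectifier potassium channel that holds the resting potential, was near the limit in the retina, with 8.79, 11.4 and 9.04 CPM against 7.50, 6.12 and 8.30 CPM and a log2 ratio of -0.41. In the pericyte-labelled cells it went from 16.4, 18.5 and 17.1 CPM to 9.98, 9.82 and 8.0 CPM, a log2 ratio of -0.90. It no longer qualified without the lens-rich libraries. On a fixed list of potassium, calcium and chloride channels, edgeR called 10 of 30 tested genes lower and 1 higher in the pericyte-labelled cells. Without Kcnn2 and Kcnj2, 8 of 28 were lower, and the first of these by p were Kcnj10 and Kcnj16, which form the potassium channel of glia. Kcnj10 went from 377, 355 and 380 CPM to 225, 248 and 256 CPM, and Kcnj16 from 36.2, 37.0 and 39.5 CPM to 26.29, 28.35 and 28.01 CPM. Leaving out single libraries gave 8 to 10 lower and 0 to 1 higher. Of all genes tested there, 8.9% were called lower and 10.9% higher. The list's median log2 fold change was -0.13, against 0.00 for all 16975 genes tested.

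In the retina 1 of 35 channels on that list, Kcnn1, was called lower and 3 higher, and the list's median was -0.17, against -0.02 for all 15440 genes tested. Of all 15440, 5.19% were called lower and 10.7% higher. Each omission of a single library left 1 or 2 of the 3 higher. The lower count was 5 without PBS library 1, 3 without vesicle library 3, 0 without PBS library 2 or without vesicle library 2, and 6 with DESeq2. Kcnn1, a small-conductance channel like Kcnn2, went from 16.4, 17.6 and 17.8 CPM to 12.3, 9.14 and 11.7 CPM in the retina, and was called higher in the pericyte-labelled cells, at 43.7, 43.0 and 42.8 CPM against 47.4, 50.5 and 46.8 CPM. There edgeR gave Kcnn1 a log2 fold change of 0.21 (SE 0.07, adjusted p = 0.034), while its close relative Kcnn2 was lower. No channel was called higher in the pericyte-labelled cells when PBS library 1 or 2 or vesicle library 2 was left out, so the call of Kcnn1 does not hold there.

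Slc38a3, a glutamine transporter of astrocytes and Müller glia, was the most abundant of the 129 genes in the retina by CPM. It stood at 359, 395 and 370 CPM with PBS and at 258, 200 and 252 CPM with vesicles. The pericyte-labelled PBS values were 50.03, 50.4 and 49.8 CPM and the vesicle values 25.1, 30.3 and 29.8 CPM. PBS libraries were tight in both tables and the gap to the vesicle libraries was wide, with log2 ratios of -0.66 and -0.82. Of the solute carriers on a fixed list, 5 of 34 were called higher and 5 lower in the retina, and 6 of 34 higher and 7 lower in the pericyte-labelled cells. Without Slc38a3, 4 and 6 of 33 were lower. Of all genes tested, 10.7% were called higher and 5.19% lower in the retina, and 10.9% and 8.9% in the pericyte-labelled cells. Single omissions gave 1 to 5 higher and 2 to 6 lower in the retina, with 1 higher when vesicle library 1 or 2, or PBS library 1, was omitted, and the fewest lower without PBS library 2 or vesicle library 1, and 5 to 6 higher and 5 to 7 lower in the pericyte-labelled cells.

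Gria2, the AMPA receptor subunit that limits calcium entry, had log2 ratios of -0.56 and -0.70. Atp7b, a copper-exporting ATPase, had -0.62 and -0.70. On the fixed list of 9 Müller glia and astrocyte markers, which holds none of the 129 genes, edgeR called 2 higher and 1 lower in the retina and 1 higher and 2 lower in the pericyte-labelled cells. The 1 higher gene in the pericyte-labelled cells was Aqp4, the water channel of glial endfeet, at 470, 491 and 493 CPM with PBS and 622, 583 and 631 CPM with vesicles. In the retina Aqp4 was the 1 called lower. Summed, these 9 markers stood between 1827 and 2633 CPM with PBS and between 1957 and 3211 CPM with vesicles in the retina, and in the pericyte-labelled cells from 11871 to 12613 CPM and from 12060 to 12617 CPM. These ranges overlapped in both tables. Vim, a filament gene of many cell types, made up 76.0% to 78.8% of the sum in the pericyte-labelled cells. Without Vim the other 8 markers stood there at 2919, 2852 and 2840 CPM with PBS and 2675, 2742 and 2736 CPM with vesicles, so every vesicle library was lower. In the retina the sums without Vim were 1491, 2404 and 2158 CPM against 1180, 1654 and 1764 CPM, which overlap. The part of these levels in the values of the glial genes among the 129 was not tested.

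Enzymes and lipid-handling proteins numbered 21, with median log2 ratios of -0.63 and -0.71. They were Pitpnm3, Thrsp, Gramd1b, Cyp27a1, St8sia5, Hpdl, Car14, Nt5e, Faah, Asphd2, Selenbp1, Colgalt2, Pla2g5, Alpl, Pde9a, Nat8f4, Hykk, Gal3st3, Cds1, Asrgl1 and Nat8f1. Pitpnm3, of the membrane-associated phosphatidylinositol transfer protein family, went from 114, 128 and 132 CPM to 70.4, 54.4 and 82.2 CPM in the retina. Its pericyte-labelled values went from 96.8, 105 and 103 CPM to 49.4, 65.4 and 63.9 CPM. The groups stood 31.7 CPM apart in the retina and 31.4 CPM apart in the pericyte-labelled cells at their nearest libraries. Gramd1b, which moves cholesterol from the plasma membrane to the endoplasmic reticulum, had log2 ratios of -0.76 and -0.76, Cyp27a1, the sterol 27-hydroxylase, -0.81 and -0.72, and Faah, which breaks down endocannabinoids, -0.71 and -0.58.

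Some enzymes were unequal. Nt5e (CD73), which makes adenosine from AMP, went from 222, 205 and 207 CPM to 135, 116 and 162 CPM in the retina, to 65.2% of the PBS mean. Among the pericyte-labelled libraries it was near the minimum level and went from 3.79, 3.24 and 1.97 CPM to 1.88, 1.19 and 1.25 CPM, to 48.0%, with nearest libraries 0.0888 CPM apart. Pla2g5, a secreted phospholipase, had log2 ratios of -0.46 and -0.97, and Colgalt2, a collagen galactosyltransferase, -0.47 and -1.11. Nat8f1 and Nat8f4 are neighbouring close copies on chromosome 6, and reads may be shared between them, so their values are uncertain as separate measurements.

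Genes of the cilium, microtubules and actin numbered 21, with median log2 ratios of -0.57 and -0.51. They were Aif1l, Dcdc2a, Kif17, Efcab12, Tagln3, Pfn4, Fmn1, Arhgap19, Ttll3, Rhpn2, Mns1, Dzank1, Ankrd45, Fam161a, Arhgef26, Tube1, Frmd5, Tub, Lrrc46, Map7d2 and Rhpn1. Aif1l, an actin-bundling protein, went from 8.60, 10.1 and 11.5 CPM to 4.54, 6.35 and 5.55 CPM in the retina. It went from 39.0, 46.2 and 44.7 CPM to 20.7, 20.2 and 23.0 CPM in the pericyte-labelled cells, to 49.2% of the PBS mean. The pericyte-labelled groups were 16.1 CPM apart at their nearest libraries.

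Dcdc2a, a doublecortin-domain protein of the ciliary axoneme, was low in both tables. It went from 3.34, 2.75 and 3.20 CPM to 0.820, 1.60 and 1.02 CPM in the retina, to 37.1%, and from 9.38, 8.94 and 7.19 CPM to 5.32, 4.82 and 4.08 CPM in the pericyte-labelled cells, to 55.7%. Kif17, a kinesin that carries cargo in cilia and dendrites, was near the minimum level. Its retina values were 1.86, 2.19 and 2.27 CPM with PBS and 1.20, 1.13 and 1.66 CPM with vesicles, and its pericyte-labelled values 3.16, 3.61 and 4.40 CPM against 1.68, 2.43 and 2.80 CPM. Its nearest libraries were under 1 CPM apart in both tables.

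Among ciliary genes with roles in photoreceptors, Fam161a, mutated in retinitis pigmentosa, went from 187, 172 and 167 CPM to 121, 105 and 137 CPM in the retina, and Tub, the founder of the tubby family, from 155, 162 and 166 CPM to 136, 92.8 and 123 CPM. The summed rod genes given above were lower in the same vesicle libraries. In the pericyte-labelled cells, where 8 of the 9 rod genes were under 1 CPM in all libraries, Fam161a had a log2 ratio of -0.47 and Tub of -1.02. Tub was low there, its lowest PBS library at 2.21 CPM and its highest vesicle library at 1.97 CPM. Neither Fam161a nor Tub qualified without the lens-rich libraries. On a fixed list of cilium and centrosome genes, edgeR called 3 of 42 lower and 1 higher in the retina and 12 of 43 lower and 1 higher in the pericyte-labelled cells. The 12 became 3 without PBS library 2 and 7 without PBS library 1 or 3. Among all genes tested, 5.19% were called lower and 10.7% higher in the retina, and 8.9% and 10.9% in the pericyte-labelled cells.

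Signalling and stress regulators numbered 12, with median log2 ratios of -0.56 and -0.52: Mmd2, Klhl3, Dusp14, Mtfp1, Dixdc1, Ypel1, Sesn1, Ncald, Ddit4, Mtcp1, Cradd and Fam53b. Mmd2, a membrane protein of the progestin and adipoQ receptor family, went from 125, 128 and 119 CPM to 57.7, 50.7 and 82.0 CPM in the retina and from 25.7, 23.3 and 23.4 CPM to 14.5, 13.6 and 12.7 CPM in the pericyte-labelled cells. Retina vesicle library 3 was the highest of the vesicle libraries, yet 37.0 CPM under the lowest PBS library. Klhl3, an adaptor that brings WNK kinases to a ubiquitin ligase, had 25.2, 27.3 and 28.8 CPM with PBS and 15.8, 14.4 and 16.8 CPM with vesicles in the retina. Its pericyte-labelled values were 14.6, 15.97 and 11.6 CPM against 6.04, 8.06 and 7.87 CPM, and its log2 ratios were -0.79 and -0.94.

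Sesn1 and Ddit4 both encode inhibitors of the growth kinase mTORC1. Sesn1 went from 176, 147 and 144 CPM to 104, 99.3 and 119 CPM in the retina and from 110, 113 and 111 CPM to 84.6, 77.5 and 79.8 CPM in the pericyte-labelled cells. Ddit4 went from 87.0, 120 and 99.1 CPM to 63.5, 51.9 and 68.4 CPM and from 155, 161 and 143 CPM to 115, 117 and 102 CPM. The log2 ratios were -0.53 and -0.47 for Sesn1 and -0.74 and -0.46 for Ddit4. Sesn1 no longer qualified without the lens-rich libraries. Of the FoxO target and growth-arrest genes on a fixed list that holds Sesn1, 4 of 29 were called higher and 4 lower in the retina, and 12 of 30 higher and 3 lower in the pericyte-labelled cells. Without Sesn1, 3 of 28 and 2 of 29 were lower. The 4 lower in the retina became 0 without vesicle library 1, 1 without vesicle library 2 and 2 without PBS library 2 or 3. Of the glucocorticoid targets, which hold Ddit4, 5 of 13 were called higher and 2 lower in the retina and 4 of 15 higher and 2 lower in the pericyte-labelled cells. Without Ddit4, 1 of 12 and 1 of 14 were lower. Both lists thus held genes called in each direction. The shares over all genes tested were 10.7% higher and 5.19% lower in the retina, and 10.9% and 8.9% in the pericyte-labelled cells.

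Transcription, chromatin and genome genes numbered 13, with median log2 ratios of -0.63 and -0.62: Sox8, Zfp781, Tet1, Raver2, Hist3h2ba, Tceal3, Nol4l, Ciart, Peg3, Brca2, Skida1, Hes6 and Cbx8. Tet1, an enzyme that oxidises methylated cytosine, went from 6.42, 7.81 and 4.61 CPM to 3.53, 2.61 and 4.15 CPM in the retina and from 19.3, 16.1 and 16.8 CPM to 9.83, 11.8 and 12.4 CPM in the pericyte-labelled cells. Cbx8, a subunit of Polycomb repressive complex 1, went from 22.9, 26.8 and 21.3 CPM to 13.8, 12.8 and 15.8 CPM and from 15.3, 15.7 and 14.7 CPM to 10.96, 11.7 and 11.5 CPM. The retina libraries of Tet1 came within 1 CPM of each other, and the groups of Cbx8 stayed further apart.

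Both stand on a fixed list of chromatin and corepressor genes, of which edgeR called 4 of 39 lower and 0 higher in the retina, and 9 of 39 lower and 3 higher in the pericyte-labelled cells. Without Tet1 and Cbx8, 3 and 7 of 37 were lower. Among all genes tested, 5.19% were called lower and 10.7% higher in the retina, and 8.9% and 10.9% in the pericyte-labelled cells. The list's median log2 fold change was -0.16 in the retina, against -0.02 for all genes tested, and -0.01 in the pericyte-labelled cells, against 0.00. The first others by p were Hdac9, a class IIa histone deacetylase, and Tet3 in the retina, and Nfib, a nuclear factor I, and Cbx6 in the pericyte-labelled cells. Hdac9 went from 61.6, 61.0 and 50.5 CPM to 37.3, 31.9 and 40.8 CPM in the retina and was not called in the pericyte-labelled cells. Single omissions gave 2 to 6 lower in the retina, with 2 lower when PBS library 2 or vesicle library 1 or 2 was left out. For the pericyte-labelled cells they gave 6 to 11 lower and 0 to 8 higher, the 8 without vesicle library 1 and the 0 without PBS library 2 or vesicle library 2.

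Ciart, a repressor of the circadian clock, went from 7.70, 10.4 and 7.13 CPM to 4.23, 3.56 and 5.81 CPM in the retina and from 9.25, 10.9 and 8.56 CPM to 5.09, 7.76 and 7.81 CPM in the pericyte-labelled cells. In the latter, 1 vesicle library was low and the others lay within 1 CPM of the lowest PBS library. On a fixed clock list, 7 of 23 genes were called lower and 2 higher in the retina, and 5 of 23 lower and 4 higher in the pericyte-labelled cells. Without Ciart, 6 and 5 of 22 were lower. Of all genes tested, 5.19% were called lower and 10.7% higher in the retina, and 8.9% and 10.9% in the pericyte-labelled cells. The 7 became 2 without PBS library 2 or vesicle library 2 and 3 without vesicle library 1, and the 5 became 3 without PBS library 2 or 3. The 2 higher in the retina became 1 when vesicle library 1 or 2, or PBS library 2, was omitted, and the 4 higher in the pericyte-labelled cells became 2 without PBS library 3.

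Hes6, which relieves repression by the Notch target Hes1, went from 24.5, 27.6 and 21.6 CPM to 16.02, 19.2 and 19.5 CPM in the retina and from 57.3, 58.1 and 55.5 CPM to 35.9, 40.7 and 33.2 CPM in the pericyte-labelled cells. The log2 ratios were -0.43 and -0.64. Of the Notch pathway genes on a fixed list, 9 of 29 (8 of 28 without Hes6) were called lower and 0 higher in the pericyte-labelled cells, with 8 to 12 lower when single libraries were left out and 2 higher without vesicle library 1. In the retina 3 of 27 were called lower and 4 higher, and the 3 became 0 without PBS library 2 or vesicle library 2. The shares over all genes tested were 5.19% lower and 10.7% higher in the retina, and 8.9% and 10.9% in the pericyte-labelled cells. Sox8, a factor of glial development, had ratios of -0.70 and -0.90.

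Other protein-coding genes numbered 13: Wscd2, Prrt3, Fam124a, Tmem200c, Lrrc75b, Ttc41, Arxes2, Tmem144, BC034090, Klhdc9, A930004D18Rik, 1810010H24Rik and Fam241b. Wscd2, a sulfotransferase-domain protein, went from 4.56, 8.99 and 6.33 CPM to 3.78, 3.86 and 3.51 CPM in the retina and from 9.22, 8.36 and 11.6 CPM to 4.19, 4.41 and 4.16 CPM in the pericyte-labelled cells. Its vesicle libraries were close to each other in both tables, and its PBS libraries were spread. Prrt3, a proline-rich membrane protein, went from 2.31, 4.81 and 3.997 CPM to 1.95, 1.60 and 1.15 CPM and from 2.03, 1.91 and 3.36 CPM to 1.16, 1.76 and 1.28 CPM, with nearest libraries under 1 CPM apart in both tables.

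**Figure D5:**
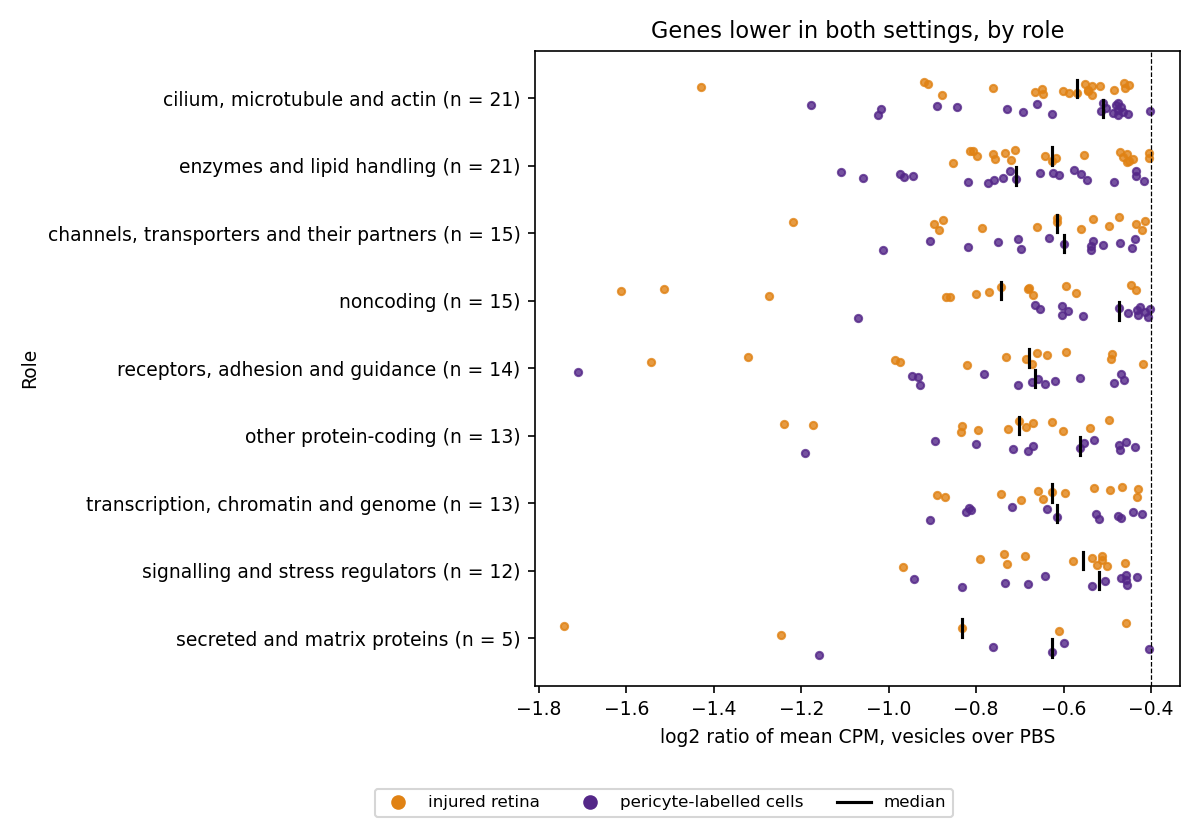
Log2 ratio of mean CPM, vesicles over PBS, for each of the 129 genes by role, in the retina (orange) and the pericyte-labelled cells (purple), with black marks for medians and a dashed line at the -0.4 limit of the rule. Medians lie between -0.83 and -0.56 in the retina and between -0.71 and -0.47 in the pericyte-labelled cells.

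Long noncoding genes numbered 15, and all of them were unnamed gene models. They were Gm15663, AA465934, C630043F03Rik, 2610020C07Rik, Gm11266, Gm17750, C230013L11Rik, 3830408C21Rik, 5930430L01Rik, 5330434G04Rik, 4930570G19Rik, C130071C03Rik, 1700012D14Rik, A330074K22Rik and 1700096K18Rik. Gm15663 went from 4.36, 4.18 and 3.14 CPM to 1.89, 1.54 and 3.00 CPM in the retina and from 2.71, 2.67 and 2.76 CPM to 1.65, 1.16 and 1.07 CPM in the pericyte-labelled cells. Retina vesicle library 3 nearly met the lowest PBS library, and the pericyte-labelled groups were further apart relative to their level. Gm11266 had log2 ratios of -1.61 and -0.59 and AA465934 of -1.51 and -0.65, which placed both beside Gpr37 and Col9a1 among the largest falls in the retina.

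Gene class was not part of the rule. Noncoding genes made up 11.6% of the 129 genes and 2.25% of the 11100 compared. Put the other way, 6.0% of the 250 noncoding genes compared met the rule and 1.05% of the 10850 coding genes. Among genes lower in the retina that did not qualify in the pericyte-labelled cells the noncoding share was 6.06%. Among those lower in the pericyte-labelled cells that did not qualify in the retina it was 3.91%, and among the 273 genes higher in both 0.733%. Of the 21 genes lower in the retina and higher in the pericyte-labelled cells 2 were noncoding (9.52%), and of the 48 with the opposite directions 1 (2.08%). Noncoding genes also differed from coding genes in level and in their general shift. Their median was 7.52 CPM in the retina and 6.28 CPM in the pericyte-labelled cells with PBS, against 28.2 and 42.9 CPM for coding genes, and the median log2 ratio of all noncoding genes compared was -0.21 and -0.17, against -0.03 and -0.04. The part of level in the share was not tested.

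Levels of the 129 genes were lower than usual for the genes compared, with medians of 15.5 CPM in the retina and 12.1 CPM in the pericyte-labelled cells with PBS, against 27.6 and 41.8 CPM. Per kilobase of exon in GENCODE vM21, the highest PBS levels in the retina were those of Tagln3, a neuronal calponin-family protein, at 144 CPM per kb, Hist3h2ba, a histone H2B gene, also at 144, and Pla2g5 at 90.6. The highest in the pericyte-labelled cells were Ddit4 at 87.2, Crb2, a cell polarity protein, at 50.5 and Plxdc1 at 41.9. Median exon length was 4.58 kb for the 129 genes and 4.71 kb for the genes compared. Exons of 38 of the 129 genes overlap exons of a gene on the other strand, and without a stated strand setting reads of such pairs cannot be told apart. Among the genes described above with values in every library, these are Aif1l, Kcnn2, Fzd5 and Gm15663, and Tub, given so in the retina, is another. Genes with close copies, such as Arxes2, Tceal3 and Hist3h2ba, are uncertain in the same way. Within 100 kb of each other lay 4 pairs of the 129 genes: Ciart and Car14 on chromosome 3 with 2 gene starts between them, Nat8f4 and Nat8f1 on chromosome 6 with 0, Ttll3 and Prrt3 on chromosome 6 with 9, and A930004D18Rik and Skida1 on chromosome 2 with 1.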

How the data were processed

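Bulk RNA counts of 12 libraries were used, 6 of retina and 6 of pericyte-labelled cells. Per the submitters' processing notes, the authors used FastQC 0.11.8, HISAT2 2.0.5, featureCounts 1.5.0-p3 and limma. Per the labels' protocols, Trizol was used for extraction and a NEBNext Ultra RNA kit for library construction. The genome build and strand setting are not given in the sources used here. As deposited, the values are raw counts by the authors, for 32285 genes in the retina table and 55401 in the other, which were scaled and tested separately. Levels were not tested across tables. CPM gaps between groups grow with a gene's level, so gaps given side by side do not show which table separated its groups better.

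CPM and the rule were computed with Python 3.11.15 and pandas 2.3.3. Each table was fitted with edgeR 4.0.16 (R 4.3.3, TMM, filterByExpr with a minimum count of 10, robust quasi-likelihood F test, 4 residual degrees of freedom, 2-sided, Benjamini-Hochberg adjusted p under 0.05 as a call). The fit was tested on simulated data. With 3 libraries a group, 0.1 is the lowest p an exact 2-sided permutation test allows, and p-values measure the spread between these libraries, which may be technical. Alternatives were RLE size factors, DESeq2 1.42.0, no low-count filter, single libraries left out and a replicate block. Replicates differed by more than sampling noise.

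The genes, the 20 pathway lists and the 16 marker lists were chosen with earlier results of these data known. Values in every library were given for the 12 genes whose weaker fall was greatest and for each gene on a list. Other genes with values were chosen after these were seen. Gene classes came from the gene types listed in the count table of the pericyte-labelled cells, and exon lengths from GENCODE vM21. Protein features were not used here. Some of the genes are counted but not reported by name here. The series text names knockdowns in a C3H10T1/2 line that match no sample.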

Additional observations from a re-analysis of the deposited data

How the results depend on the processing

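With other limits on the log2 ratio, the rule took 219 genes at -0.3, 67 at -0.5 and 1 at -1. With TMM scaling it took 105 genes (100 of the 129), with totals over shared genes it took 130, with totals without lens genes 119, with minimum means of 1 and 5 CPM 152 and 87, and with medians 111. It took 217 without the lens-rich libraries and from 117 to 247 when single libraries were left out, most without retina PBS library 1 (247) and retina vesicle library 3 (232). Fewer libraries make the no-overlap part of the rule easier to meet, so higher counts are partly built in. Among the 24 genes named by rule, 431 recomputed ratios stayed within 1 SD of the replicates and 1 did not. That 1 was Sesn1 in the pericyte-labelled cells with TMM (-0.42). None changed sign. Where a library was left out, the sign could not change, since the rule put every vesicle library below every PBS library. Leaving out 1 of 3 libraries also moves a group mean by less than 1 SD of the 3. Nothing on the stability of these genes is therefore read from the omissions. The genes called in the retina, 2449, became 1420 without the lens-rich libraries and ran from 1328 to 2909 when single libraries were left out, with 1328 without PBS library 2, 1401 without vesicle library 1 and 1381 without vesicle library 2. Other scalings, DESeq2 and no filter gave 2446 to 3015. In the pericyte-labelled cells, 3365 calls became 2412 to 3500 without single libraries and 3377 to 3507 under the other settings. Same-numbered pericyte-labelled libraries did not deviate together, with correlations of 0.009, 0.039 and -0.021. No pairing by number was seen, though the labels leave it open. A replicate block gave 3287 calls. In the retina the columns carry a number but no sample name, and correlations of 0.233, -0.209 and -0.016 showed no pairing by number. A replicate block on these column numbers, added after the data were seen, gave 1919 calls. Genes near 2 CPM rest on few counts, and 46 of the 129 in the retina and 40 in the pericyte-labelled cells had groups under 1 CPM apart. The cause of these shifts was not tested.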

Other observations

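On the clock list, 3 genes were called in the same direction in both tables, a choice made after their values were seen. Ciart was called lower in the retina only. Dbp, a clock-output transcription factor, had edgeR log2 fold changes of -0.70 (SE 0.16, adjusted p = 0.016) in the retina and -0.23 (SE 0.07, adjusted p = 0.015) in the pericyte-labelled cells. Per3, a period gene, had -0.38 (SE 0.10, adjusted p = 0.035) and -0.23 (SE 0.07, adjusted p = 0.032). Nfil3, a repressor that competes with Dbp for its sites, was higher, with 1.01 (SE 0.23, adjusted p = 0.015) and 0.83 (SE 0.16, adjusted p = 0.00072). Of 23 clock genes tested, 7 were called lower and 2 higher in the retina, and 5 lower and 4 higher in the pericyte-labelled cells. Rorb and Arntl in the retina and Hlf and Tef in the pericyte-labelled cells had lower p than these 3 genes. Over all genes tested, 15.9% were called in the retina and 19.8% in the pericyte-labelled cells. The share of all genes called alike in both is not given, so no shared clock response is read from the 3. Leaving out single libraries took the list's lower calls from 7 to as few as 2 in the retina. In the pericyte-labelled cells they went from 5 to as few as 3. The list's higher calls went from 2 to as few as 1 and from 4 to as few as 2.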
